A study of Mus musculus with 4 samples.

Results

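MNK-3 is a mouse cell line used as a model of group 3 innate lymphoid cells, and its transcriptome is set here against 2 primary cell types, natural killer (NK) cells and group 2 innate lymphoid cells (ILC2). A gene was taken as higher in MNK-3 when each of the 2 MNK-3 libraries held at least 10 CPM (read counts scaled to a common library total) and at least 4 times the CPM of both NK and ILC2. The reverse set held genes with at least 10 CPM in both NK and ILC2 and at least 4 times the CPM of either MNK-3 library. Of the 30731 genes listed in all 4 libraries, 432 were higher (1.41%) and 75 were lower (0.244%). These shares are the comparison for each count of members in a list or family below, also where they are not repeated. These members were chosen by their levels, so the levels are given as a description and no test is put on them.

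Each library measured total RNA from bulk cells, prepared with a stranded kit for small inputs and read in pairs of 38 bases, and every input had an RNA integrity number above 9. The NK library came from spleen and the ILC2 library from bone marrow, both from pooled wild-type C57BL/6 mice aged 8 to 12 weeks. The ILC2 had been grown with IL-25, IL-33, IL-2 and IL-7 (10 ng/ml) to expand them. The 2 MNK-3 libraries came from a wild-type line that goes back to thymocytes of NIH-Swiss fetuses at day 15 and was grown in IL-7 and IL-15 at 10 ng/ml. Strain, tissue of origin, life stage and culture therefore differ together with the cell type, and their shares in any value below cannot be told apart. NK and ILC2 had 1 library each, and the labels speak of technical replicates, so the spread between the MNK-3 libraries may be technical only. In bulk RNA, fewer cells that express a gene and less RNA per cell cannot be told apart.

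Group 3 innate lymphoid cells are lymphocytes without rearranged antigen receptors that answer IL-23 and IL-1 with IL-22 and IL-17. Their fetal form, the lymphoid tissue inducer cell, carries lymphotoxin, RANK ligand, CCR6, CXCR5 and neuropilin-1 and starts the formation of lymph nodes and Peyer's patches. NK cells belong to group 1 and kill target cells, whereas ILC2 make IL-5 and IL-13.

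The libraries held 4637812 (NK), 9298162 (ILC2), 25617762 (MNK-3 library 1) and 15177345 (MNK-3 library 2) reads in the shared genes. MNK-3 library 1 stood apart: 75.8% of its reads lay outside genes, against 23.1% to 47.1% in the other libraries. The 1134 olfactory receptor genes, which lymphocytes are not known to use, had a median of 1.68 CPM there, against 0.216 in NK and 0 in ILC2 and in library 2. None of them met the rule in either direction. In the depth of each library, 3 counts corresponded to 0.647 CPM in NK, 0.323 in ILC2, 0.117 in library 1 and 0.198 in library 2.

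Library 1 taken alone would have given 2250 higher and 87 lower genes, and library 2 alone 495 and 294. Of the higher set from library 1, 19.2% was also in that from library 2, and 87.3% of the higher set from library 2 was also in that from library 1. For the lower set these shares were 86.2% and 25.5%. Asking for both libraries thus kept most of what library 2 gave as higher but left out 219 genes that were low in library 2 alone. Among the 432 higher genes, 415 had MNK-3 libraries within 2-fold of each other, and the median log2 ratio of library 1 to library 2 was -0.12. Among the 75 lower genes only 29 were that close, library 1 was the higher of the pair in 67, and the median log2 ratio was 1.43. The scaling of the libraries mattered as well: TMM factors gave 313 higher and 122 lower genes and median-of-ratios factors gave 200 and 180, with library 1 scaled by 1.40 and 1.85.

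**Figure D1:**
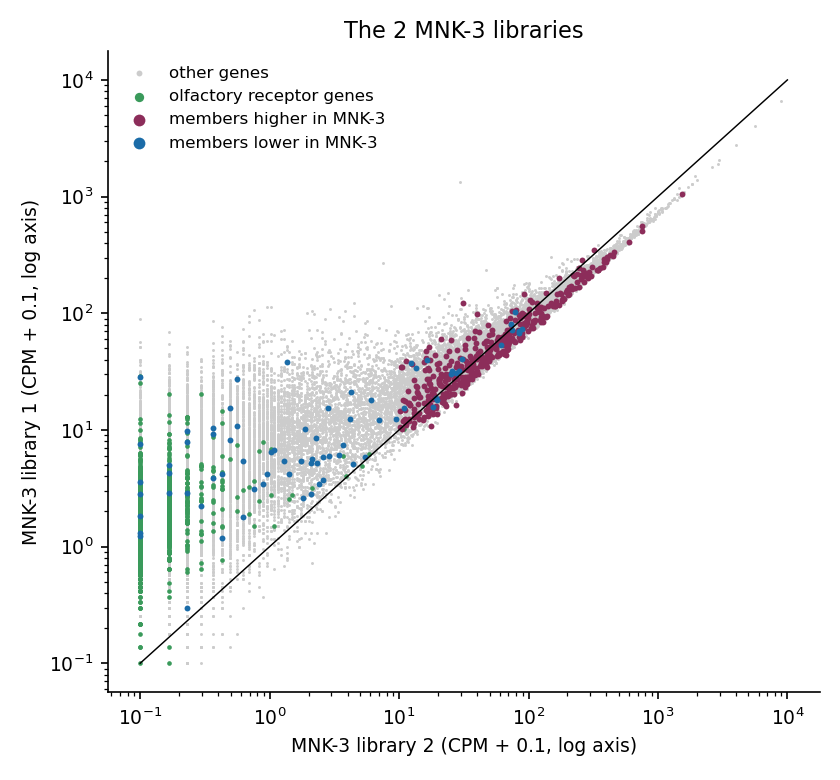
CPM of each shared gene in MNK-3 library 2 (horizontal) and library 1 (vertical), with 0.1 CPM added, on log axes, mitochondrial and scaffold genes left out. The higher members lie along the diagonal, whereas many lower members and most olfactory receptor genes lie above it, with more CPM in library 1.

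**Figure D2:**
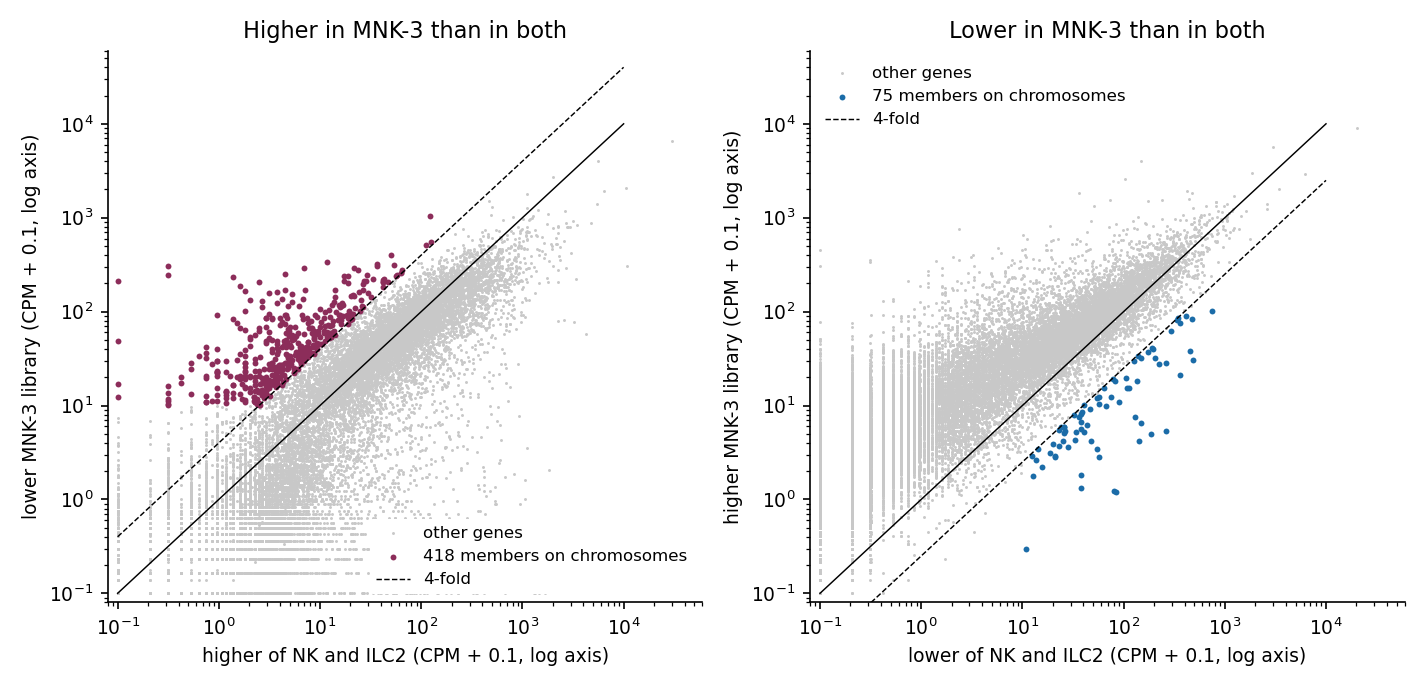
CPM of each shared gene on a chromosome, with 0.1 CPM added, on log axes. Left, the higher of NK and ILC2 against the lower MNK-3 library, with the 418 higher members on chromosomes; right, the lower of NK and ILC2 against the higher MNK-3 library, with the 75 lower members. The solid line marks equal CPM and the dashed line a 4-fold difference.

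The label was set beside a list of 21 genes that mark group 3 cells. The list was chosen with earlier results of these data known. It also holds the markers Il23r, Rora, Kit and Cxcr6, so it describes the line and is no independent check of the label. In this list 8 genes were 4 times higher than both primary cells and none was 4 times lower, beside 432 and 75 of 30731 among all genes. The median log2 ratio of mean MNK-3 to NK was 4.89 and to ILC2 1.66, beside 0.88 and 1.12 over all genes with enough counts to be tested. Il23r, the receptor chain specific to IL-23, had 209 and 306 CPM in the MNK-3 libraries, 0 in NK and 0 in ILC2. The MNK-3 libraries were high and the primary cells had no read, where a count of 0 allows up to 0.647 CPM in NK and 0.323 in ILC2. Kit, the receptor for stem cell factor, had 73.5 and 123 CPM in NK and ILC2 against 1044 and 1535 in MNK-3, which is 8.52-fold between the nearest libraries. The other 2 genes named as markers were shared with ILC2. Rora, a nuclear receptor needed for ILC2, had 36.2 CPM in NK, 497 in ILC2 and 1292 and 1841 in MNK-3 libraries 1 and 2, and Cxcr6, a chemokine receptor of tissue lymphocytes, had 333 and 478 CPM in the MNK-3 libraries, 5.61 in NK and 150.1 in ILC2. Both were above ILC2 in each MNK-3 library but by less than 4 times. Id2, a transcriptional inhibitor needed for innate lymphoid development, went the other way, with 550.0 and 828 CPM in NK and ILC2 against 142 and 185 in MNK-3. Both MNK-3 libraries were below both primary cells, by less than 4 times from NK, and Id2 was the 1 gene of the 21 that a limma voom fit over all 4 libraries called lower.

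The sequences just upstream of the group 3 genes are shown because these members were high together and the nuclear receptor encoded by Rora is known to bind the letters AGGTCA. The 250 bases before the gene start (RefSeq, GRCm38.p6) were searched for AGGTCA on either strand, that is also TGACCT, and each match is in capitals. The first, with its pair of matches, lies at chr6:67491856-67492105 on the minus strand, next to Il23r. The window of Ccr6 is at chr17:8235793-8236042 on the plus strand, that of Nrp1 at chr8:128358823-128359072 on the plus strand, and that of Lta, without a match, at chr17:35205352-35205601 on the minus strand.
Il23r: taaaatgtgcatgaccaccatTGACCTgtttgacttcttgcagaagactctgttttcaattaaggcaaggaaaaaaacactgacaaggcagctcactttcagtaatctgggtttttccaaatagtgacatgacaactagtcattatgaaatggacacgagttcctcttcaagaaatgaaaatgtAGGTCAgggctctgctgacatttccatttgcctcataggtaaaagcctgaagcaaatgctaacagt
Ccr6: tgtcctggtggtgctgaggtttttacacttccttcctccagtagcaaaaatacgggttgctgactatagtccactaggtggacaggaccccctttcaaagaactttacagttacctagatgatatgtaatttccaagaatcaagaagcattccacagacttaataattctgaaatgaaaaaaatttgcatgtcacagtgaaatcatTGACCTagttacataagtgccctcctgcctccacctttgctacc
Nrp1: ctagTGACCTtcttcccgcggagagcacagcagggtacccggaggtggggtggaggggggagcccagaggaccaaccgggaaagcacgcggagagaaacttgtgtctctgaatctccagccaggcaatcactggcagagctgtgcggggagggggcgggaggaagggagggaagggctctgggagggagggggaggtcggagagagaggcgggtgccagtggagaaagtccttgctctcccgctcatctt
Lta: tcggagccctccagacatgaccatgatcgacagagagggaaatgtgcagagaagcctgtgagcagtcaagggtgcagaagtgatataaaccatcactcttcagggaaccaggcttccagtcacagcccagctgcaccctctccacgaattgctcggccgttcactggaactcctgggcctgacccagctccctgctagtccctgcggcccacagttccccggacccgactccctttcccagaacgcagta

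RefSeq windows were found for 314 of the 418 higher members on chromosomes and for 56 of the 75 lower ones. Of the 425 windows of the higher members, 50 held the letters, or 11.8%, and of the 82 windows of the lower members 8 did, or 9.76%. Among all 32851 windows the share was 14.0%. The members' windows thus did not hold these letters more often than promoters at large. Windows of Il1r1, Kit, Tnfsf11 and another window of Ccr6 held no match.

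Receptors of the group 3 cell are taken first. Il1r1, the signalling receptor for IL-1, had 1.08 CPM in NK, 1.51 in ILC2 and 186 and 269 in MNK-3 libraries 1 and 2. The IL-1 receptor family did not move as a block: Il1rl1, the receptor for IL-33, had 5.93 and 0 CPM in the MNK-3 libraries, 1.08 in NK and 1457 in ILC2, and the decoy receptor Il1r2 had 0.216 and 325 CPM in NK and ILC2 against 2.65 and 0.0659 in MNK-3. Il18r1, the receptor for IL-18, was a lower member with 594 CPM in NK, 25.5 in ILC2 and 5.82 and 2.5 in MNK-3 libraries 1 and 2. Its partner Il18rap lay just outside the limit with 78 and 116 CPM in the MNK-3 libraries, 976 in NK and 461 in ILC2. So of 6 receptor genes of this family, 1 was higher and 1 lower than both primary cells, beside 1.41% and 0.244% of all genes. The family was put together after the levels were seen, so its count is a description only. ILC2 held the highest level of the IL-33 receptor.

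Ccr6, the receptor for CCL20, had 0.431 and 0.108 CPM in NK and ILC2 against 24.3 and 30.04 in MNK-3. Cxcr5, the receptor for CXCL13, had 5.17 CPM in NK, 1.51 in ILC2 and 53.6 and 52 in MNK-3 libraries 1 and 2. They were 2 of 23 chemokine receptor genes, and no other was 4 times higher or lower than both. Among all genes 1.41% were higher and 0.244% lower. Jaml, an adhesion receptor of epithelial T cells, had 82.5 and 91.6 CPM in the MNK-3 libraries, 6.68 in NK and 0.323 in ILC2, and Ramp1, the partner chain of the receptor for the neuropeptide CGRP, had 4.31 and 2.8 CPM in NK and ILC2 against 48.2 and 49.9 in MNK-3. Gpr35 had 1.51 CPM in NK, 1.72 in ILC2 and 17 and 15.6 in MNK-3 libraries 1 and 2. Adgrg5 had 68.7 and 71 CPM in the MNK-3 libraries, 9.92 in NK and 6.02 in ILC2, and both are G protein-coupled receptors. In each of these receptors the primary cells stayed below 10 CPM, while the gap to MNK-3 was set by the rule.

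Ligands of the tumor necrosis factor family, by which lymphoid tissue inducer cells act on stroma, were among the higher members. Lta, which encodes lymphotoxin alpha, had 0.431 and 0 CPM in NK and ILC2 against 28.3 and 33.3 in MNK-3. Tnfsf11, which encodes RANK ligand, had 0.647 CPM in NK, 4.41 in ILC2 and 74.2 and 90.8 in MNK-3 libraries 1 and 2. Tnf had 33.1 and 35.7 CPM in the MNK-3 libraries, 6.04 in NK and 0.538 in ILC2. Ltb, the membrane partner of lymphotoxin alpha, had 37.7 and 5.16 CPM in NK and ILC2 against 106 and 135 in MNK-3, above both primary cells in each library but below 4 times NK. Tnfsf14, another ligand of the lymphotoxin receptor, had 54.8 CPM in NK, 3.23 in ILC2 and 6.64 and 1.38 in MNK-3 libraries 1 and 2, with NK the highest. Nrp1, a co-receptor for semaphorins and vascular growth factor, had 149 and 137 CPM in the MNK-3 libraries, 4.1 in NK and 3.87 in ILC2, though an exon of it overlaps a gene counted in only some of the libraries.

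The effector cytokines of group 3 cells stayed low. Il22 had 0.216 and 4.62 CPM in NK and ILC2 against 7.73 and 8.76 in MNK-3, Il17f had 0.431 CPM in NK, 0.968 in ILC2 and 7.03 and 5.07 in MNK-3 libraries 1 and 2. Il17a had 1.13 and 0.329 CPM in the MNK-3 libraries, 0 in NK and 0 in ILC2. None reached 10 CPM in any library, and no stimulation was named in the labels. Csf2 was not above the primary cells either, with 4.53 and 99.9 CPM in NK and ILC2 against 4.33 and 5.21 in MNK-3. Among 37 genes of secreted cytokines and chemokines, Lta, Tnfsf11 and Tnf were higher members and Ccl3 was a lower one. The shares among all genes were 1.41% and 0.244%.

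**Figure D3:**
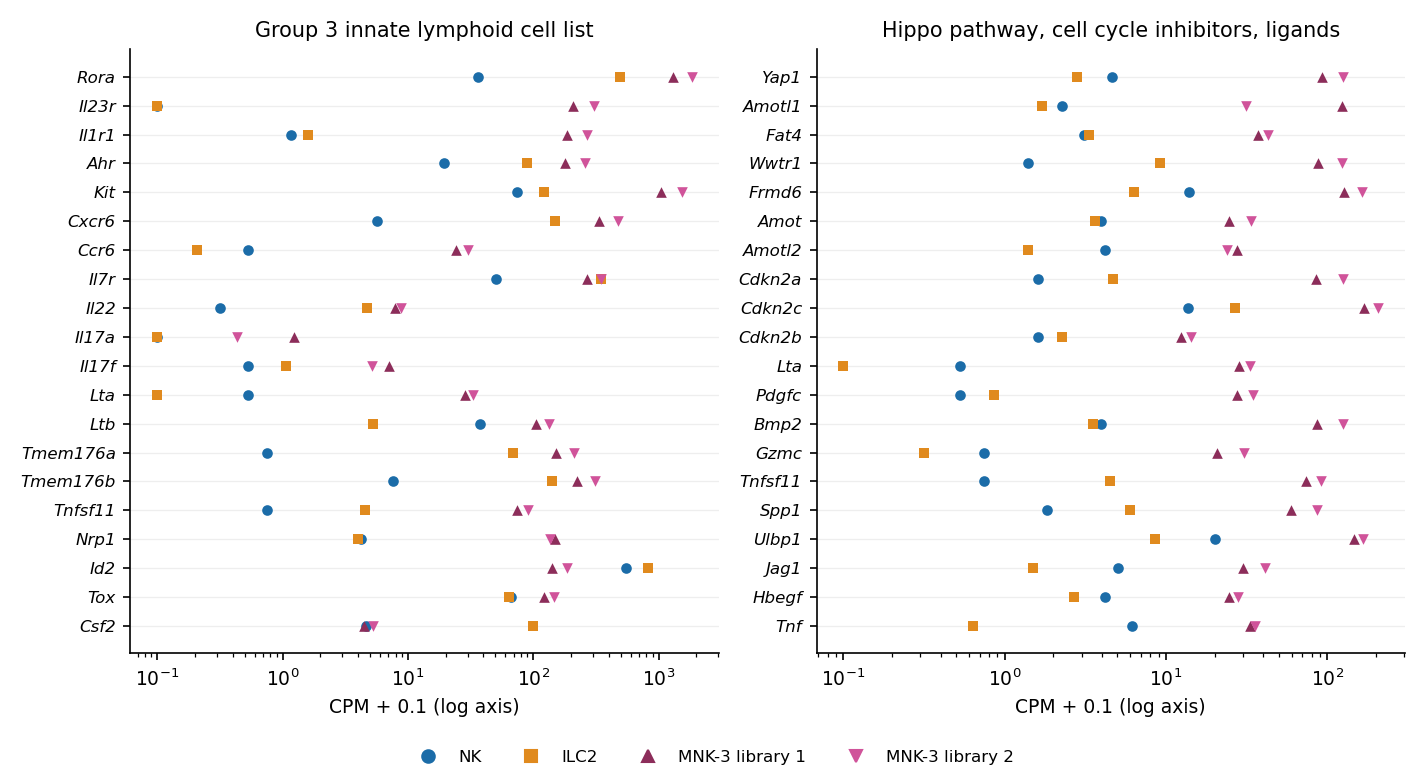
CPM in NK, ILC2 and the 2 MNK-3 libraries, with 0.1 CPM added, on a log axis; each row is a gene and each point a library. Left, 20 of the 21 genes of the group 3 list in list order; right, all higher members grouped as Hippo pathway (7), cell cycle inhibitors (3) and ligands (10), by falling ratio within each group.

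Beyond the lymphoid genes, 204 of the 432 higher members were put into 17 groups by known function, after their levels had been seen. The grouping is a way to describe them and carries no test. The Hippo pathway controls growth through the coactivators YAP and TAZ, which work with TEAD factors in epithelial and mesenchymal cells. Yap1 had 4.53 CPM in NK, 2.69 in ILC2 and 93.1 and 126 in MNK-3 libraries 1 and 2, and Wwtr1, which encodes TAZ, had 87.2 and 123 CPM in the MNK-3 libraries, 1.29 in NK and 9.14 in ILC2. Both stayed below 10 CPM in the primary cells. Frmd6, an upstream regulator, had 13.8 and 6.24 CPM in NK and ILC2 against 127 and 163 in MNK-3, the protocadherin Fat4 had 3.02 CPM in NK, 3.23 in ILC2 and 37.3 and 43 in MNK-3 libraries 1 and 2, and the angiomotins, which hold YAP in the cytoplasm, were higher as well. Amot had 24.6 and 33.6 CPM in the MNK-3 libraries, 3.88 in NK and 3.55 in ILC2, Amotl2 had 4.1 and 1.29 CPM in NK and ILC2 against 27.4 and 23.7 in MNK-3. Amotl1 had 2.16 CPM in NK, 1.61 in ILC2 and 123 and 31.3 in MNK-3 libraries 1 and 2, with library 1 well above library 2 in the last. The kinases did not share this: Lats1 had 98.7 and 112 CPM in the MNK-3 libraries, 99.4 in NK and 90.7 in ILC2. Lats2 had 77.8 and 18.7 CPM in NK and ILC2 against 33.6 and 39.3 in MNK-3. Of the TEAD genes none was a member. Tead3 had 7.76 CPM in NK, 8.6 in ILC2 and 30.7 and 21.1 in MNK-3 libraries 1 and 2, less than 4 times ILC2. Tead1, Tead2 and Tead4 were above both primary cells in library 1 but below NK in library 2. In NK they had 5.61, 5.17 and 3.45 CPM, against 3.62, 1.84 and 1.19 in library 2. Bmp2, a growth factor of the TGF-beta family, had 85.7 and 126 CPM in the MNK-3 libraries, 3.88 in NK and 3.44 in ILC2.

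The INK4 inhibitors block the kinases that D cyclins activate at the start of the cell cycle, and 3 of them were higher members. They were 3 of 7 INK4 and CIP cell cycle inhibitor genes, beside 1.41% of all genes. This set was put together after the levels were seen, so nothing is read from its count. Cdkn2a, the locus of p16 and p19ARF, had 1.51 and 4.62 CPM in NK and ILC2 against 84.6 and 125 in MNK-3. Cdkn2c, which encodes p18, had 13.6 CPM in NK, 26.8 in ILC2 and 169 and 206 in MNK-3 libraries 1 and 2, and Cdkn2b, which encodes p15, had 12.4 and 14.1 CPM in the MNK-3 libraries, 1.51 in NK and 2.15 in ILC2. The fourth INK4 gene, Cdkn2d, had 53.5 and 67.5 CPM in NK and ILC2 against 62.9 and 59 in MNK-3, with no library apart. No CIP gene was a member. Cdkn1a had 4.1 CPM in NK, 91.7 in ILC2 and 28.5 and 31.5 in MNK-3 libraries 1 and 2. Cdkn1b had 189 and 243 CPM in the MNK-3 libraries, 234 in NK and 155 in ILC2. Cdkn1c had 4.1 and 1.94 CPM in NK and ILC2 against 12.0 and 14.6 in MNK-3. At the same time Ccnd2, a D cyclin that the INK4 inhibitors restrain, was a lower member. Its level was 614 CPM in NK, 359 in ILC2 and 21.1 and 4.15 in MNK-3 libraries 1 and 2. Ccnd3 had 98.6 and 68 CPM in the MNK-3 libraries, 259.6 in NK and 125 in ILC2. Ccnd1 had 4.53 and 1.72 CPM in NK and ILC2 against 13.7 and 0.791 in MNK-3, so that library 2 held little of 2 of the 3 D cyclins. Proliferation genes were far above NK but near ILC2. Of 30 such genes none met the rule, the median log2 ratio being 4.43 to NK and 0.62 to ILC2, beside 0.88 and 1.12 over all tested genes. Mki67, expressed in cycling cells, had 150.1 CPM in NK, 2014 in ILC2 and 2745 and 4011 in MNK-3 libraries 1 and 2.

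Transcription factors of other lineages and of development formed a group of 25. Arnt2, a partner of bHLH-PAS factors, had 83.6 and 111 CPM in the MNK-3 libraries, 1.29 in NK and 0.968 in ILC2. Eya4, a developmental coactivator, had 0.647 and 0.538 CPM in NK and ILC2 against 36.4 and 37.1 in MNK-3, and Gli3, a mediator of hedgehog signals, had 3.23 CPM in NK, 0.968 in ILC2 and 85.5 and 109 in MNK-3 libraries 1 and 2. These were among the widest ratios of the group. Snai2 had 15.9 and 22.9 CPM in the MNK-3 libraries, 0 in NK and 0.215 in ILC2. Twist1 had 1.72 and 0.323 CPM in NK and ILC2 against 28.1 and 32.4 in MNK-3, and both drive mesenchymal programs. Mycn, the MYC gene of progenitors, had 2.37 CPM in NK, 2.26 in ILC2 and 23.5 and 23.6 in MNK-3 libraries 1 and 2, whereas Myc had 50.7 and 19.5 CPM in the MNK-3 libraries, 62.3 in NK and 229 in ILC2. Rorb, a nuclear receptor known from neurons, had 1.08 and 0.645 CPM in NK and ILC2 against 15.1 and 13 in MNK-3. Batf3 had 3.45 CPM in NK, 2.15 in ILC2 and 30.9 and 38.9 in MNK-3 libraries 1 and 2. Zbtb46 had 71.2 and 70.2 CPM in the MNK-3 libraries, 12.5 in NK and 1.72 in ILC2, factors otherwise known from dendritic cells. Apart from Arnt2 and Gli3, the members named from this group stayed under 100 CPM in both MNK-3 libraries.

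Of the 3 Nr4a genes, which encode signal-induced nuclear receptors, Nr4a1 and Nr4a3 were higher members. Nr4a1 had 50.5 and 34.6 CPM in NK and ILC2 against 405 and 599 in MNK-3. Nr4a3 had 110.2 CPM in NK, 2.26 in ILC2 and 512 and 756 in MNK-3 libraries 1 and 2, both induced by antigen receptor and other acute signals. Nr4a2, with 163 and 239.8 CPM in the MNK-3 libraries, 84.3 in NK and 6.56 in ILC2, was above both primary cells but by less than 4 times from NK. Among the Egr genes, Egr1, with 78.1 and 25.3 CPM in NK and ILC2 against 33.4 and 20.3 in MNK-3, was below NK in both libraries and on either side of ILC2. Egr3 had 11.2 CPM in NK, 3.33 in ILC2 and 70.3 and 98.7 in MNK-3 libraries 1 and 2, and the phosphatase gene Dusp4 had 116 and 159.9 CPM in the MNK-3 libraries, 6.04 in NK and 12.9 in ILC2. Fos and Junb, which respond to similar signals, differed from them: Fos had 250.1 and 3.23 CPM in NK and ILC2 against 10.8 and 7.84 in MNK-3. Junb had 775 CPM in NK, 389.9 in ILC2 and 91.2 and 122 in MNK-3 libraries 1 and 2. Of 27 immediate early genes 3 were higher than both primary cells and none was lower, beside 1.41% and 0.244% of all genes. Their median log2 ratio was -1.52 to NK and 1.15 to ILC2, beside 0.88 and 1.12 over all tested genes. Of 16 circadian clock genes 3 were higher members and none was a lower one, beside 1.41% and 0.244% of all genes. This family was put together after the levels were seen, so nothing is read from its count. The higher ones were Nr1d1, with 116 and 155 CPM in the MNK-3 libraries, 1.51 in NK and 6.13 in ILC2, Npas2, with 3.45 and 5.16 CPM in NK and ILC2 against 56.1 and 71.1 in MNK-3, and Dbp, with 13.2 CPM in NK, 12.4 in ILC2 and 78.7 and 72.6 in MNK-3 libraries 1 and 2. Cry1, with 111 and 149 CPM in the MNK-3 libraries, 21.6 in NK and 35.3 in ILC2, was above both primary cells. It missed the rule through library 1 alone, which was less than 4 times ILC2. Arntl had 38.2 and 57.9 CPM in NK and ILC2 against 130.1 and 148 in MNK-3, above both primary cells by less than 4 times. Bhlhe40, with 447 CPM in NK, 400.4 in ILC2 and 206 and 274 in MNK-3 libraries 1 and 2, was below both. Hlf, with 21.6 and 25.8 CPM in the MNK-3 libraries, 2.8 in NK and 591 in ILC2, was above NK and far below ILC2, and Per2, with 33.6 and 12.9 CPM in NK and ILC2 against 36.8 and 2.77 in MNK-3, was low in library 2 alone of the MNK-3 pair.

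Adhesion and matrix genes made up 2 large groups, of 21 and 20 members. Cntn1, a neural adhesion molecule, had 1.51 CPM in NK, 1.72 in ILC2 and 168 and 247 in MNK-3 libraries 1 and 2, and Igsf9b, a synaptic one, had 163 and 217 CPM in the MNK-3 libraries, 3.67 in NK and 3.23 in ILC2. Sdc1, the proteoglycan syndecan-1, had 2.16 and 4.41 CPM in NK and ILC2 against 171 and 214 in MNK-3. Fermt2, which activates integrins in adherent cells, had 5.17 CPM in NK, 3.12 in ILC2 and 128 and 182 in MNK-3 libraries 1 and 2, and the gap junction gene Gja1 had 289 and 381 CPM in the MNK-3 libraries, 1.94 in NK and 21.7 in ILC2. The focal adhesion kinase gene Ptk2 had 3.23 and 29 CPM in NK and ILC2 against 247 and 307 in MNK-3. Such genes are best known from cells that attach. Abi3bp, a matrix protein, had 2.37 CPM in NK, 1.51 in ILC2 and 207 and 291 in MNK-3 libraries 1 and 2. Adamts15, a matrix protease, had 159 and 199.7 CPM in the MNK-3 libraries, 3.02 in NK and 1.08 in ILC2, and Serpine2, a protease inhibitor, had 3.02 and 1.72 CPM in NK and ILC2 against 94.9 and 128 in MNK-3. Lgals3, which encodes galectin-3, had 6.04 CPM in NK, 53.2 in ILC2 and 317 and 424 in MNK-3 libraries 1 and 2. Col5a1 had 81.8 and 98.1 CPM in the MNK-3 libraries, 9.27 in NK and 14.9 in ILC2. A list of 12 markers of stromal, epithelial and endothelial cells (such as Epcam, Col1a1 and Pecam1) held no member of either set and summed to 29.1 CPM in library 2, 148 in library 1, 122 in NK and 228 in ILC2. Pecam1, which leukocytes also express, made up most of the sum in NK, ILC2 and library 2, with 92.9 and 208 CPM in NK and ILC2 against 59.96 and 21.2 in MNK-3. Without it the other 11 summed to 88.5 CPM in library 1, 7.84 in library 2, 29.1 in NK and 19.3 in ILC2, so that library 1 was highest and library 2 lowest.

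Genes best known from neurons, and guidance and growth factor receptors, made 2 further groups of 12 and 21 members. Kcnk1, a potassium channel, had 1.29 CPM in NK, 0.215 in ILC2 and 236 and 339 in MNK-3 libraries 1 and 2. Cpe, a prohormone carboxypeptidase, had 134 and 189 CPM in the MNK-3 libraries, 0.862 in NK and 1.94 in ILC2, and Map2, a microtubule protein of dendrites, had 2.59 and 1.61 CPM in NK and ILC2 against 131 and 180.1 in MNK-3. In these genes the primary cells had under 3 CPM. Sorcs1, a sorting receptor, had 0.216 CPM in NK, 1.4 in ILC2 and 75.7 and 92.9 in MNK-3 libraries 1 and 2, and Kcnmb4, a potassium channel subunit, had 41.8 and 52.2 CPM in the MNK-3 libraries, 0.431 in NK and 0.645 in ILC2. Ptprf, a receptor phosphatase, had 11.6 and 9.79 CPM in NK and ILC2 against 334 and 456 in MNK-3. Igf1r, the IGF-1 receptor, had 30.6 CPM in NK, 36.1 in ILC2 and 347 and 322 in MNK-3 libraries 1 and 2. Nrp2 had 54.4 and 59.2 CPM in the MNK-3 libraries, 3.45 in NK and 5.7 in ILC2, and Plxna2, a plexin that pairs with neuropilins, had 1.08 and 1.94 CPM in NK and ILC2 against 57.1 and 51 in MNK-3. Arhgap20, a GTPase-activating protein, had 1.72 CPM in NK, 0.43 in ILC2 and 129 and 102 in MNK-3 libraries 1 and 2, and Avil, the actin binder advillin, had 303 and 404 CPM in the MNK-3 libraries, 10.6 in NK and 36.5 in ILC2. The grouping also placed 11 members in the primary cilium and axoneme, of which Ttbk2, a kinase that starts cilium growth, had 9.49 and 11 CPM in NK and ILC2 against 91.1 and 86.4 in MNK-3.

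Genes of the interferon and antigen presentation systems gave 9 higher members. Ifi202b, an interferon-induced DNA sensor, had 0 CPM in NK, 0 in ILC2 and 48.6 and 49 in MNK-3 libraries 1 and 2. Ifi27l2a had 92.3 and 136 CPM in the MNK-3 libraries, 0.862 in NK and 0.43 in ILC2. Apol9a had 0.216 and 0.538 CPM in NK and ILC2 against 33.9 and 36.7 in MNK-3, both interferon-induced. These genes had at most 1 CPM in the primary cells. Of 29 interferon-stimulated genes in the list only Oasl2 was a member, with 2.8 CPM in NK, 1.08 in ILC2 and 20.8 and 18.3 in MNK-3 libraries 1 and 2. The list's median log2 ratio was -0.17 to NK and 0.91 to ILC2, beside 0.88 and 1.12 over all tested genes. The class I genes H2-Q2, with 49.3 and 69.5 CPM in the MNK-3 libraries, 5.17 in NK and 2.15 in ILC2, and H2-Q1, with 3.23 and 0.86 CPM in NK and ILC2 against 30.6 and 28.3 in MNK-3, were higher, whereas H2-K1 had 2335 CPM in NK, 951 in ILC2 and 357 and 493 in MNK-3 libraries 1 and 2. B2m had 399 and 608 CPM in the MNK-3 libraries, 1449 in NK and 664 in ILC2. The H2 genes are near copies of each other and differ between strains, so reads can be split among them. Cd74, the class II invariant chain, had 21.8 and 14.6 CPM in NK and ILC2 against 145 and 206 in MNK-3, but H2-Aa had 3.02 CPM in NK, 2.26 in ILC2 and 2.54 and 0.198 in MNK-3 libraries 1 and 2. H2-Ab1 had 9.56 and 0.0659 CPM in the MNK-3 libraries, 9.49 in NK and 81.1 in ILC2, and an exon of Cd74 overlaps a gene counted in only some of the libraries.

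Other genes with wide ratios were of mixed function. Fam84b had 6.9 and 3.12 CPM in NK and ILC2 against 294 and 405 in MNK-3, Psd2 had 1.51 CPM in NK, 0.538 in ILC2 and 67.4 and 89.1 in MNK-3 libraries 1 and 2, 9330182L06Rik had 39.9 and 49.5 CPM in the MNK-3 libraries, 0.647 in NK and 0.86 in ILC2, and Tdrd9, a helicase of the germline, had 3.67 and 1.61 CPM in NK and ILC2 against 123 and 164 in MNK-3. Gda, which encodes guanine deaminase, had 1.72 CPM in NK, 0.753 in ILC2 and 64.1 and 89.5 in MNK-3 libraries 1 and 2. All had less than 7 CPM in NK and in ILC2. A pair of members with wide ratios overlap an exon of a gene counted in only some of the libraries: Ccnb1ip1, with 309 and 449 CPM in the MNK-3 libraries, 0.216 in NK and 0 in ILC2, and Rbm42, with 2.59 and 0.323 CPM in NK and ILC2 against 111 and 131 in MNK-3. The same holds for the histone gene Hist2h3c1, with 0 CPM in NK, 0 in ILC2 and 18 and 16.7 in MNK-3 libraries 1 and 2. Such overlaps touched 24 of the 432 higher members, or 5.56%, and 8 of the 75 lower ones, or 10.7%, against 2.57% of the shared genes, and their part in the levels was not tested. Histone genes are also near copies, and 7 of them were higher members. Exon overlap with any annotated gene on either strand was found for 33.3% of the higher and 42.7% of the lower members, against 38.0% of the 13151 genes with at least 10 CPM in any library. Of the genes named here, Cxcr5, Jaml, Yap1, Fat4, Gli3, Arnt2, Arhgap20, Nr1d1, Dbp, Kcnk1, Map2, Sorcs1, Cd52, Itga4, Anxa2 and Ccnd2 carry such an overlap, and the strand setting of the counting is not given in the sources used here.

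The higher set also held 10 mitochondrially encoded genes and 4 genes on unplaced scaffolds. All 13 mitochondrial genes and all 77 scaffold genes had no count in NK or ILC2, whereas mt-Co1 had 1177 and 1748 CPM in the MNK-3 libraries. Since the tables of the primary cells hold no read on these sequences at all, no difference is read from them.

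**Figure D4:**
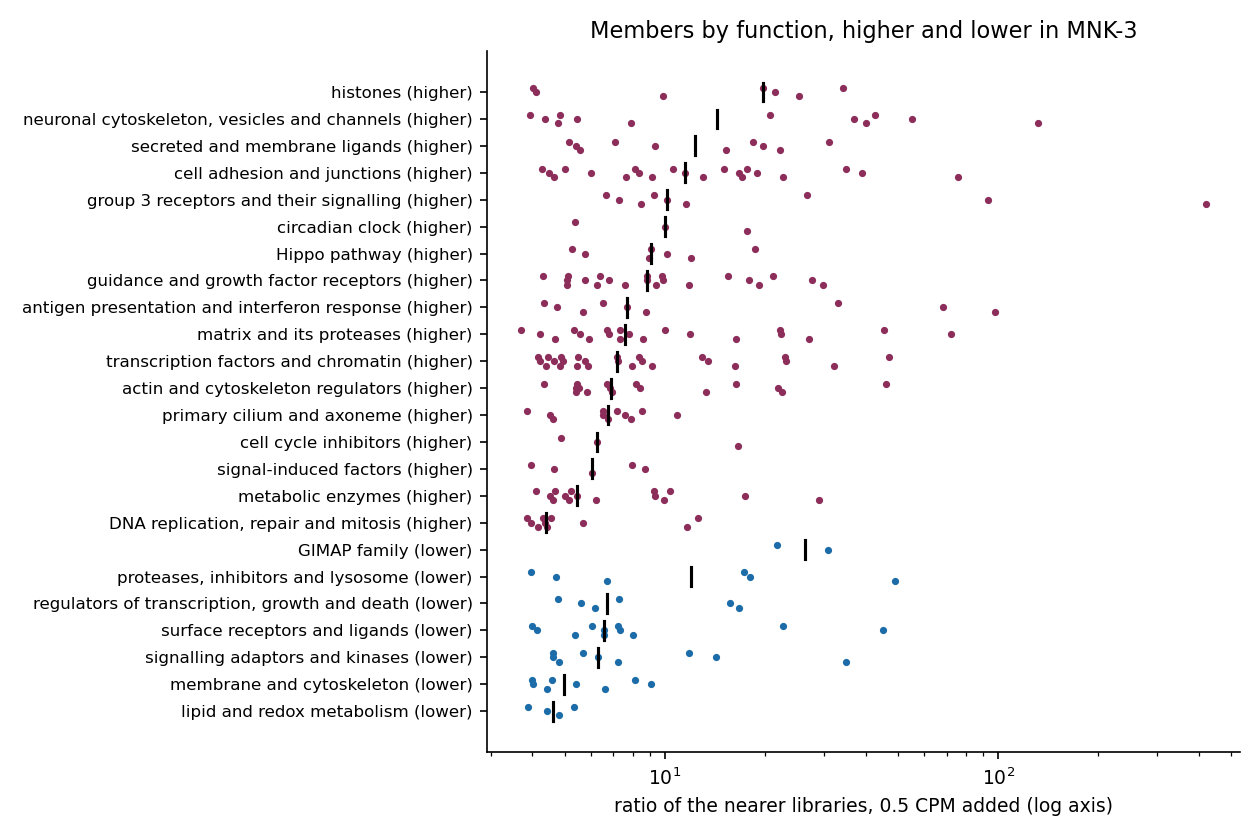
Ratio between the nearest MNK-3 and primary libraries, with 0.5 CPM added, for the 204 higher (17 groups) and 46 lower (7 groups) members that were grouped by function, on a log axis. Each point is a gene and each black bar the median of its group; the widest ratio is that of Il23r.

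Surface receptors and ligands of lymphocytes gave 11 of the 75 lower genes. Cd52, a small surface glycoprotein of lymphocytes, had 5.27 and 1.19 CPM in the MNK-3 libraries, 261 in NK and 373 in ILC2. Itga4, the alpha4 integrin chain, had 2249 and 751 CPM in NK and ILC2 against 102 and 79.1 in MNK-3. Its partners differed: Itgb7 had 339.8 CPM in NK, 513 in ILC2 and 482 and 695 in MNK-3 libraries 1 and 2. Itgb1 had 159 and 228 CPM in the MNK-3 libraries, 1325 in NK and 164 in ILC2. S1pr1, the receptor that lets lymphocytes leave tissues, had 92.5 and 18.5 CPM in NK and ILC2 against 3.04 and 0.659 in MNK-3. Cd48, a ligand of the NK receptor 2B4, had 131 CPM in NK, 33.3 in ILC2 and 4.18 and 0.0659 in MNK-3 libraries 1 and 2, and Cd72, a C-type lectin, had 10.7 and 0.461 CPM in the MNK-3 libraries, 89.1 in NK and 89.6 in ILC2. Klrg1, an inhibitory receptor of NK cells and ILC2, had 89.7 and 20.8 CPM in NK and ILC2 against 2.73 and 1.98 in MNK-3, and Tigit, an inhibitory receptor for nectins, had 69.2 CPM in NK, 12.7 in ILC2 and 1.68 and 0.527 in MNK-3 libraries 1 and 2. Icam1, the ligand of LFA-1, had 9.68 and 0.132 CPM in the MNK-3 libraries, 129.6 in NK and 66.4 in ILC2, and Il10ra, the IL-10 receptor chain, had 368 and 32.6 CPM in NK and ILC2 against 7.81 and 0.132 in MNK-3. Ccl3, a chemokine of activated NK cells, had 175 CPM in NK, 38.1 in ILC2 and 1.21 and 0 in MNK-3 libraries 1 and 2. In all of these members library 1 was above library 2, while the gap to the primary cells was set by the rule.

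The GIMAP genes encode GTPases that support lymphocyte survival, and the 8 shared members of the family lie side by side at chr6:48647234-48770851. Gimap4 had 6.36 and 0.922 CPM in the MNK-3 libraries, 1068 in NK and 148 in ILC2. Gimap3 had 421 and 140.5 CPM in NK and ILC2 against 4.06 and 1.32 in MNK-3. Their neighbours were less far apart: Gimap6 had 663 CPM in NK, 127 in ILC2 and 57 and 68.3 in MNK-3 libraries 1 and 2, Gimap8 had 56.8 and 71.8 CPM in the MNK-3 libraries, 500.5 in NK and 139 in ILC2. Gimap5 had 156 and 51.7 CPM in NK and ILC2 against 31.5 and 38.7 in MNK-3. For Gimap9 the MNK-3 libraries were above ILC2, with 218 CPM in NK, 71 in ILC2 and 98.7 and 131 in MNK-3 libraries 1 and 2. So 2 of 8 genes of this cluster met the rule, beside 0.244% of all genes, and 5 more were below both primary cells by less. The genes of this family are similar, so their reads may be split. Nothing is read from the count, since the family was put together after the levels were seen.

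Some genes that act in proteolysis and inflammation were lower members too. Of 7 cathepsin genes 2 were lower, beside 0.244% of all genes. That family was put together after the levels were seen, so its count is a description only. Ctla2a, a cathepsin inhibitor, had 1.13 and 0 CPM in the MNK-3 libraries, 80.9 in NK and 79.7 in ILC2. Ctss, the protease cathepsin S, had 70.3 and 57.6 CPM in NK and ILC2 against 2.73 and 0 in MNK-3, whereas Ctsb had 107 CPM in NK, 199 in ILC2 and 193 and 236 in MNK-3 libraries 1 and 2. Casp1, the inflammasome caspase, had 1.72 and 0 CPM in the MNK-3 libraries, 40.1 in NK and 37.9 in ILC2, while its neighbour Casp4 had 15.5 and 25.1 CPM in NK and ILC2 against 31.8 and 36.6 in MNK-3. For Ctla2a, Ctss and Casp1, library 2 had no read, which allows up to 0.198 CPM. Ctsd, cathepsin D, had 485 CPM in NK, 292 in ILC2 and 53.8 and 61.6 in MNK-3 libraries 1 and 2, a case in which the 2 MNK-3 libraries were close. Smpdl3a, a lysosomal esterase, had 6.05 and 3.36 CPM in the MNK-3 libraries, 54.6 in NK and 43.2 in ILC2. Anxa2, a membrane-binding annexin, had 670.1 and 261 CPM in NK and ILC2 against 28.4 and 0 in MNK-3, and its partner S100a10 had 566 CPM in NK, 177 in ILC2 and 184 and 269 in MNK-3 libraries 1 and 2. Anxa5 had 90.4 and 134 CPM in the MNK-3 libraries, 34.5 in NK and 85.1 in ILC2. Anxa2 was the only 1 of 7 annexin genes to meet the rule, beside 0.244% of all genes, and the gap between its MNK-3 libraries was wide.

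Signalling adaptors made up 9 of the lower members. Pik3ap1, an adaptor of PI3 kinase, had 262 and 187 CPM in NK and ILC2 against 4.88 and 0.0659 in MNK-3, and Plek, a protein kinase C substrate, had 953 CPM in NK, 54.4 in ILC2 and 3.36 and 0.791 in MNK-3 libraries 1 and 2. Fyb, an adaptor of integrin activation, had 37.7 and 1.25 CPM in the MNK-3 libraries, 449.6 in NK and 536 in ILC2, and Arhgap15, a Rac regulator, had 214 and 114 CPM in NK and ILC2 against 15.4 and 0.395 in MNK-3. Pik3cg, the gamma catalytic subunit of PI3 kinase, had 253 CPM in NK, 203 in ILC2 and 31.8 and 29 in MNK-3 libraries 1 and 2. Library 2 was under 2 CPM for the first 4 of these 5 genes but not for Pik3cg. Sytl2, which ties vesicles to membranes, had 27.4 and 0.461 CPM in the MNK-3 libraries, 226 in NK and 269.6 in ILC2, and Myadm, a membrane raft protein, had 21.1 and 24.5 CPM in NK and ILC2 against 2.77 and 0.132 in MNK-3. Zeb2, a repressor needed for mature NK cells, had 611 CPM in NK, 489 in ILC2 and 30.8 and 27.7 in MNK-3 libraries 1 and 2. Txnip, an inhibitor of glucose uptake, had 15.6 and 18.3 CPM in the MNK-3 libraries, 746 in NK and 136 in ILC2. In Zeb2 and Txnip the MNK-3 libraries were within 2-fold of each other. Exons of Fyb and Zeb2 overlap a gene counted in only some of the libraries, as does Hgs, which had the widest ratio of the lower set with 87.1 and 84.9 CPM in NK and ILC2 against 1.09 and 0.329 in MNK-3.

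The rest of the widest lower ratios were of mixed function. Vsig8 had 172 CPM in NK, 131 in ILC2 and 7.38 and 3.56 in MNK-3 libraries 1 and 2, 2210016F16Rik had 4.06 and 0.857 CPM in the MNK-3 libraries, 47 in NK and 58.6 in ILC2, and Itm2a, a membrane protein of activated lymphocytes, had 40.5 and 60.2 CPM in NK and ILC2 against 5.15 and 1.98 in MNK-3. Clptm1l had 107 CPM in NK, 161 in ILC2 and 15.3 and 2.7 in MNK-3 libraries 1 and 2, and Cyp4v3, a fatty acid hydroxylase, had 3.47 and 0 CPM in the MNK-3 libraries, 39.5 in NK and 27.9 in ILC2. Trim12a, an antiviral gene with near copies in the genome, had 105 and 10.8 CPM in NK and ILC2 against 0.195 and 0.132 in MNK-3. That both MNK-3 libraries were below each primary cell in every case follows from the rule.

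**Figure D5:**
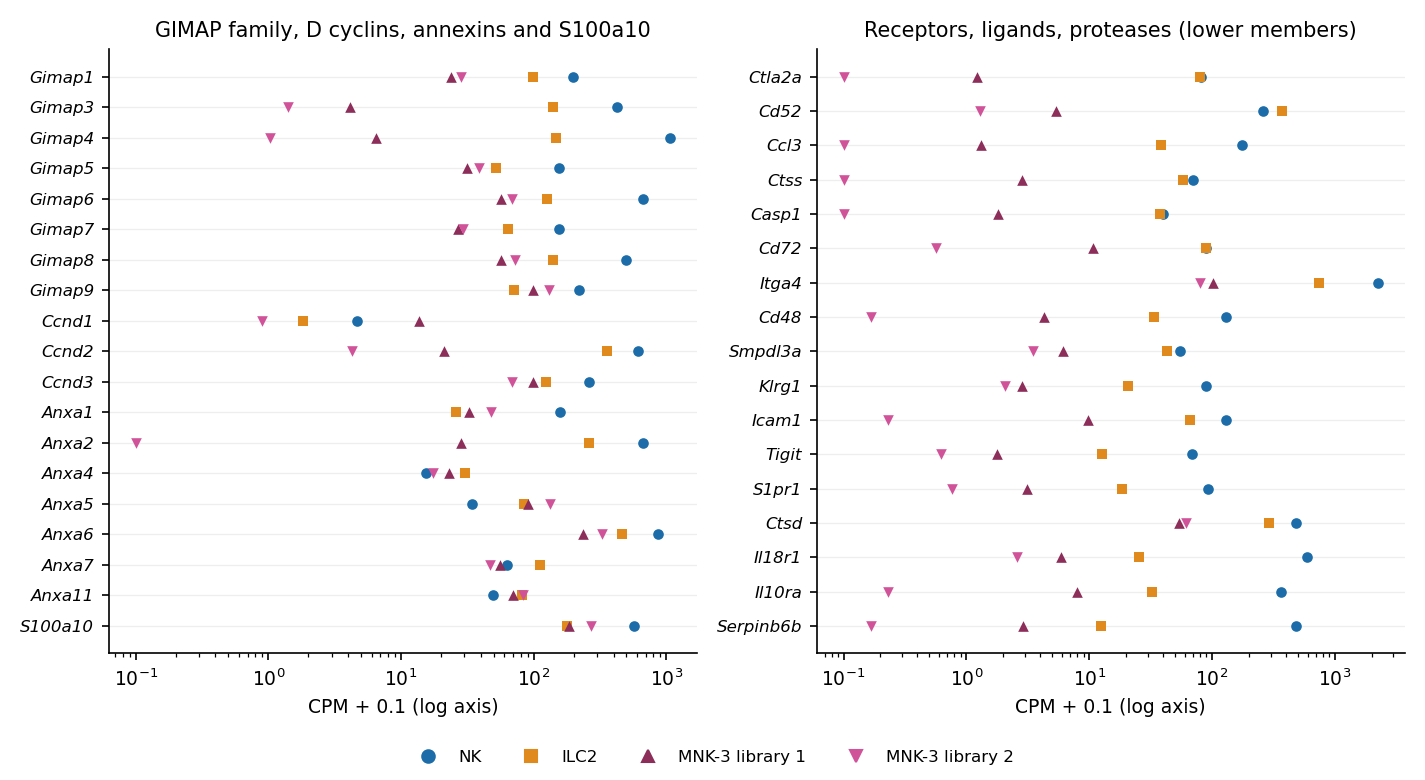
CPM in NK, ILC2 and the 2 MNK-3 libraries, with 0.1 CPM added, on a log axis; each row is a gene and each point a library. Left, the shared GIMAP, D cyclin and annexin genes with S100a10, of which Gimap3, Gimap4, Ccnd2 and Anxa2 met the rule; right, 17 lower members grouped as receptors and ligands or as proteases, inhibitors and lysosome.

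Other cell types were described through lists of their markers. In the T cell and thymocyte list, which covers the tissue the line came from, none of 23 genes met the rule, and the list summed to 1331 CPM in NK, 214 in ILC2, 851 in library 1 and 609.9 in library 2. The 2 MNK-3 libraries differed within it: Themis, a thymocyte signalling gene, had 0.862 CPM in NK, 2.8 in ILC2 and 51.1 and 0 in MNK-3 libraries 1 and 2, Cd3e had 30.4 and 0.0659 CPM in the MNK-3 libraries, 4.74 in NK and 9.03 in ILC2. Cd8a had 0.431 and 0.108 CPM in NK and ILC2 against 15.9 and 0.461 in MNK-3. Genes high in both were Zap70, with 147 CPM in NK, 38.5 in ILC2 and 289.8 and 397 in MNK-3 libraries 1 and 2, and Trbc1, with 84.5 and 115 CPM in the MNK-3 libraries, 38.6 in NK and 1.08 in ILC2. Trac had 11.9 and 16.4 CPM there, 3.45 in NK and 0.215 in ILC2, and met the rule in library 2 alone. Cd28, with 50.6 and 36.6 CPM, lay between NK (81.9) and ILC2 (0.108). The list's median log2 ratio of mean MNK-3 was 1.36 to NK and 2.98 to ILC2. Over all tested genes it was 0.88 and 1.12, and library 1 enters these means. In library 2, Rag2, Ptcra and Themis had no count. No gene of the lists for B cells (10), myeloid cells (12), mast cells and basophils (8) or erythroid cells and megakaryocytes (9) met the rule. These summed in library 1 and library 2 to 110.1 and 73.5 CPM for B cells, 68.0 and 15.1 for myeloid cells, 46.0 and 4.55 for mast cells and basophils, and 48.3 and 7.58 for erythroid cells and megakaryocytes.

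Markers of the primary cells seldom met the rule for lower genes, which asks for a level in NK and ILC2 alike. The counts in these lists stand beside 0.244% lower among all genes. Of 22 group 1 genes, Zeb2 alone was 4 times lower than both primary cells, and the median log2 ratio was -5.69 to NK and 1.10 to ILC2. Over all tested genes the medians were 0.88 and 1.12, so the value to ILC2 is that of genes at large. These medians use the mean of both MNK-3 libraries, and some genes had a level in library 1 alone, such as Fasl with 4.1 and 0.0659 CPM. Ncr1, the receptor NKp46, had 1114 and 0 CPM in NK and ILC2 against 3.4 and 4.94 in MNK-3, and Gzma, a granzyme, had 2287 CPM in NK, 2.26 in ILC2 and 6.99 and 0.0659 in MNK-3 libraries 1 and 2. Of 19 group 2 genes Klrg1 alone met the rule, with a median log2 ratio of 1.18 to NK and -3.28 to ILC2, beside the same 0.88 and 1.12. Il13 had 10.9 and 0 CPM in the MNK-3 libraries, 0.431 in NK and 1663 in ILC2. Of 30 genes shared by innate lymphoid cells, Cd48 and Il18r1 were 4 times lower than both. Ptprc, the leukocyte antigen CD45, was well below NK with 4248 and 642 CPM in NK and ILC2 against 163 and 57.3 in MNK-3, and it met the rule in library 2 alone. Thy1 had 149.9 CPM in NK, 46.4 in ILC2 and 346 and 465 in MNK-3 libraries 1 and 2. Il7r, the IL-7 receptor, had 269 and 347 CPM in the MNK-3 libraries, 50.02 in NK and 348 in ILC2, so that MNK-3 held both.

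The counts in the remaining lists stand beside 1.41% higher and 0.244% lower among all genes. Of 43 cytokine receptor genes 3 were higher (Il23r, Il1r1 and Kit) and 2 lower (Il18r1 and Il10ra), and of 25 integrin genes Itga4 alone was lower. Of 13 genes of lymphocyte egress and homing S1pr1 and Itga4 were lower. Of 28 Notch and Wnt genes Jag1, a Notch ligand, was higher, with 4.96 and 1.4 CPM in NK and ILC2 against 29.9 and 40.9 in MNK-3. Mycn was the only higher member of 18 early haematopoietic regulators and Cd74 of 9 class II genes, and none of 15 class I genes of the list met the rule.

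Library 2 alone gave 16 further list genes as lower and 3 as higher, for which library 1 did not meet the rule. Notch1 had 255 CPM in NK, 284 in ILC2 and 115 and 24.3 in MNK-3 libraries 1 and 2. Hes1, a target of Notch, had 17.4 and 1.78 CPM in the MNK-3 libraries, 29.8 in NK and 27.3 in ILC2. Rnf43, a Wnt pathway inhibitor, was higher in library 2 with 92.1 and 17.4 CPM in NK and ILC2 against 331 and 449 in MNK-3. In Notch1 and Hes1 library 1 was above library 2 by more than 4 times, and its background moves with that gap; its part was not tested.

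At the limit of the rule the members differed little from genes left out. Just inside on the higher side were Atrnl1 (4.003-fold between the nearest libraries), Enkd1 (4.04) and Cenpm (4.04), and just outside Ccp110 (3.9999), Rab32 (3.99) and Scpep1 (3.98). On the lower side Scd1 (4.02), Coro2a (4.03) and Otulinl (4.08) were inside and Cldn34c1 (3.998), Il18rap (3.97) and Tlx3 (3.97) outside.

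A limma voom fit over all 4 libraries asked which genes differed from both primary cells beyond the spread of the MNK-3 pair, at an adjusted p below 0.05 in both contrasts. NK and ILC2 have 1 library each, so the fit assumes that they vary like the MNK-3 pair, whose spread may be technical only. Its p values then set differences between separate samples against that spread, pooled over all genes and weighted by level. The spread of a gene's own MNK-3 pair had no part in its p value. It called 37 genes higher (0.146% of 25283 tested) and 147 lower (0.581%). Of the 432 higher members 4 were called so, namely Kit, Nr4a1, Golim4 and Pkp4, and of the 75 lower members 26 were. Because the members were chosen on the same contrast, nothing is read from these counts. The fit has 1 residual degree of freedom, and TMM factors left 0 genes called higher, with 70 at an unadjusted p below 0.05, and 9 called lower.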

How the data were processed

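The authors deposited 1 table per library of whole-number HTSeq read counts per gene, made with STAR 2.7.8a on the mouse build mm10 (GRCm38), per the submitters' processing notes. The gene set and strand setting are not given in the sources used here. The table for NK and that for ILC2 list 53465 genes and those for MNK-3 list 31053, so 30731 genes listed in all 4 were used, after removal of the summary rows that name no gene (25.9% to 76.5% of reads). CPM were computed on each library's total over the shared genes, 4637812 to 25617762 reads, which bounds counting error only. Gene positions and overlaps are from GENCODE M21 (GRCm38), with records for 30692 of the shared genes, and symbols were found for 30615.

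Members were taken by the size rule given in the report. The members and gene lists were chosen with earlier results of these data known, and the function groups and gene families after their levels were seen. Genes named are the markers Il23r, Rora, Kit and Cxcr6, the 30 protein-coding members in each direction on chromosomes with the widest ratio of nearer libraries (0.5 CPM added), members in a gene list, 3 genes on each side of the 4-fold limit, and others chosen after their values were seen. Across all genes limma 3.58.1 (R 4.3.3) with voom weights was fitted to the 4 libraries in 3 groups, with Benjamini-Hochberg adjustment over 25283 genes. The fit was run on simulated data. These had a common mean profile apart from the genes set to change, and no background particular to library 1. They therefore do not show how the fit performs on the real MNK-3 pair. Alternatives were other scaling, limits, filters, thinning and leaving out each MNK-3 library. Some named results, among them 1 of the group 3 list, are not reported here.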

Additional observations from a re-analysis of the deposited data

Results flagged for a closer look

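The MNK-3 tables list 322 genes that the tables of the primary cells do not, and these entered no comparison. Of them, 8 had at least 10 CPM in both MNK-3 libraries. Vps28, an endosomal sorting gene, had 112.4 and 157.5 CPM in libraries 1 and 2, and Riok2, a ribosome assembly kinase, had 51.7 and 54.8. A630089N07Rik had 28.2 and 24.5 CPM and Pdxp, a pyridoxal phosphatase, 23.9 and 18.3. No level in NK or ILC2 can be set beside them.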

How the results depend on the processing

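The counts of the size rule, 432 higher and 75 lower, moved by over 1.5 times under these alternatives. TMM factors gave 122 lower genes, and median-of-ratios factors gave 200 higher and 180 lower. A 3-fold limit gave 117 lower genes, and an 8-fold limit 209 higher and 20 lower. Leaving out mitochondrial, scaffold and all exon-overlapping genes left 282 and 43, an alternative chosen after seeing the data. With a single MNK-3 library the higher count ran from 495 to 2250 and the lower from 87 to 294. The other 12 counts stayed within 1.5 times. Of the main members, TMM factors kept 302 higher and 72 lower and median-of-ratios factors 196 and 73. For the limma voom calls, 37 higher and 147 lower, TMM factors gave 0 (70 at an unadjusted p below 0.05) and 9. Median-of-ratios factors gave 0 (49 unadjusted) and 8, and factors from genes with at least 100 CPM, chosen after seeing the data, 0 (4 unadjusted) and 40. No filter on low counts gave 15 higher calls, thinning 284, and limma-trend 762 higher and 294 lower. Without either MNK-3 library the fit has no residual degrees of freedom and no value. The cause of these differences was not tested. For 77 named genes none of 462 alternative log2 ratios to the nearer primary cell reversed, and 105 moved by more than the spread of the MNK-3 pair. All but Rora and Cxcr6 were chosen for a 4-fold gap, which fixed their direction beforehand. Nothing is therefore read from the absence of reversals. No paired analysis was possible because NK and ILC2 have 1 library each. Of the 75 lower genes, 15 had at most 3 counts in library 2.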

Other observations

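Genes with known roles outside the blood were present among the lower members at moderate CPM in both primary cells. Sox1, a neural transcription factor, had 32.8 CPM in NK, 25.7 in ILC2 and 4.96 and 4.28 in MNK-3 libraries 1 and 2, with an exon that overlaps a gene counted in only some of the libraries, and Sox21 had 5.82 and 5.34 CPM in the MNK-3 libraries, 32.3 in NK and 25.5 in ILC2. Wnt3a, a Wnt ligand, had 37.7 and 26.2 CPM in NK and ILC2 against 5.27 and 1.65 in MNK-3, and Dmp1, a bone matrix gene, had 33.6 CPM in NK, 34.4 in ILC2 and 5.11 and 2.24 in MNK-3 libraries 1 and 2. Pnck, a brain kinase, had 18 and 19.4 CPM in the MNK-3 libraries, 106 in NK and 121 in ILC2. For these 5 genes NK and ILC2 were close to each other, and both MNK-3 libraries were lower as the rule asked. They were chosen after their values were seen. The gene sets of the tables differ and the strand setting of the counting is not given, so these levels are uncertain. Whether they reflect expression of these genes in NK and ILC2 was not tested.

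Ribosomal protein genes gave 2 lower members. Rpl34 had 362 and 372 CPM in NK and ILC2 against 71.4 and 74.8 in MNK-3. Rpl29 had 127 CPM in NK, 184 in ILC2 and 29.8 and 25 in MNK-3 libraries 1 and 2, with the MNK-3 libraries close to each other in both. Reads of ribosomal protein genes can be shared with pseudogenes, and the gene sets of the tables differ, so these levels are uncertain.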
